A study of Mus musculus with 6 samples.

Results

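Hepatocyte growth factor (HGF), the fibroblast growth factors (FGFs) and their receptors were examined in IL-11+ and IL-11- fibroblasts of the inflamed mouse colon. The 10 genes, taken by gene symbol, were the ligands *Hgf*, *Fgf1*, *Fgf2*, *Fgf7*, *Fgf9*, *Fgf10* and *Fgf18* and the receptors *Met*, *Fgfr1* and *Fgfr2*. All 10 were found among the 20327 gene symbols with tag counts, and 6 of them had enough tags to be tested. The 6 were *Hgf*, *Fgf2*, *Fgf7*, *Fgf10*, *Fgfr1* and *Fgfr2*.

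The study sorted colonic stromal cells by the activity of an *Il11* reporter and compared RNA of the sorted populations, to characterize the cells that make IL-11 in colitis. All 6 libraries came from *Il11-Egfp* mice of the C57BL/6 strain, aged 9 to 15 weeks, that drank 1.5% dextran sulfate sodium (DSS), which injures the colonic epithelium, for 5 days and then plain water until the sort on day 7. The EGFP-Positive group (EGFP+, IL-11+ fibroblasts, n = 3 libraries) and the EGFP-Negative group (EGFP-, IL-11- fibroblasts, n = 3 libraries) were gated from colon cells without Ter119, CD45, CD31 and EpCAM on their surface, so that genotype, treatment and time were shared. EGFP is made from an *Il11* transgene on a bacterial artificial chromosome in a single mouse line, and EGFP- cells were whatever else passed the gate. No library came from mice without DSS.

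RNA was read by 5′Tag-seq, in which each tag is a read from the 5′ side of a polyadenylated transcript. IL-11- replicates 1, 2 and 3 held 1057170, 1078179 and 1169817 tags, and IL-11+ replicates 1, 2 and 3 held 1046538, 1022851 and 1049048 tags. Normalized CPM below are tags scaled to library size and by TMM, a trimmed mean of the ratios between libraries. The floor used for genes near 0, 3 tags in a library, stood at 2.46 to 3.18 normalized CPM. This floor and the counting interval given for *Fgf18* cover counting error only, because amplified tags are not independent molecules. The p-values measure the spread among these libraries. The sort can be checked on *Il11* itself, which had 28, 51 and 89 tags in IL-11- fibroblasts and 1357, 732 and 2658 tags in IL-11+ fibroblasts. Because the reporter selects for *Il11*, this difference checks the labels and is no finding.

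As background, HGF is secreted as an inactive precursor, mainly by mesenchymal cells, is cleaved by serine proteases, and signals through the receptor tyrosine kinase MET, which is found above all on epithelial cells. FGFs bind receptor tyrosine kinases of the FGFR family together with heparan sulfate, and splice forms of the receptors decide which ligands bind. In the intestine, HGF and the FGFs of the stroma are known as growth and repair signals for the epithelium, and both receptor families signal through the RAS and ERK cascade.

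IL-11+ fibroblasts had more RNA of 4 of the 7 ligands, *Hgf*, *Fgf7*, *Fgf10* and *Fgf2*, while neither FGF receptor passed the test. *Met*, with too few tags to be tested, had 19 tags in the IL-11- libraries together and 0 in the IL-11+ libraries. A gene was called where edgeR's quasi-likelihood test gave a Benjamini-Hochberg adjusted p under 0.05 over all tested genes and the fold change was over 2. Of the 6 tested genes, 4 were called higher in IL-11+ fibroblasts, against 3.44% of the 9334 genes tested in all. Of the same 6 genes, 0 were called lower by edgeR (0 at an unadjusted p under 0.05, and 0 by DESeq2), against 6.37% of all tested genes. The 3 IL-11+ libraries lay above the 3 IL-11- libraries without overlap for 4 of the 6 genes, against 14.5% of all tested genes, and lay below them for 0 of the 6, against 16.7%. As a median, the log2 fold change was 1.79 among the 6 tested genes and -0.01 among the 9334. *Fgf2* reached the minimum of 10 tags in all IL-11+ libraries but not in all IL-11- libraries, so that the filter itself favored a gene that was high in IL-11+ fibroblasts. In bulk RNA, fewer cells that make a transcript and less of it in each cell cannot be told apart.

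**Figure D1:**
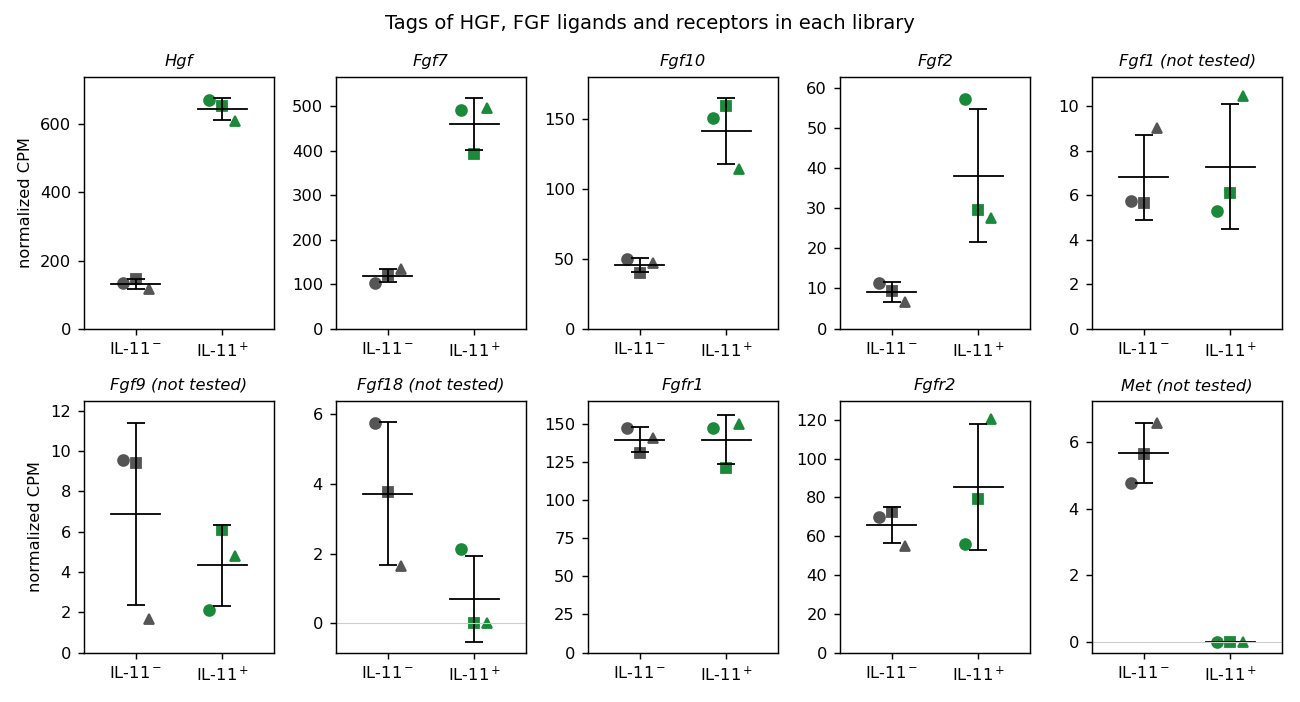
Each panel shows 1 gene, with normalized CPM on the vertical axis from 0 or just below it, each with its own scale, and the IL-11- (gray) and IL-11+ (green) libraries on the horizontal axis. Circles, squares and triangles are replicates 1, 2 and 3, and black lines give the mean and SD (n = 3). In the panel of *Hgf* the IL-11+ mean is 645 and the IL-11- mean 132, in that of *Fgfr1* both means are 139, and *Met* is at 0 in all 3 IL-11+ libraries.

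*Hgf*, the ligand of MET, had 140, 155 and 141 tags in the IL-11- libraries and 634, 643 and 641 in the IL-11+ libraries, in the order of replicates 1, 2 and 3 used throughout. Libraries of 1 group were close to each other, and every IL-11+ library was far above every IL-11- library. Normalized, *Hgf* stood at 132 ± 15.2 CPM (SD, n = 3) in IL-11- and 645 ± 31.0 CPM in IL-11+ fibroblasts. The log2 fold change was 2.29 (SE 0.170, 95% interval 1.93 to 2.65, adjusted p = 5.16e-08 by edgeR's quasi-likelihood test). Between libraries with the same replicate number, the log2 difference in *Hgf* was 2.31, 2.15 and 2.38, so that all 3 pairs showed a change of nearly the same size.

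*Fgf7*, also called keratinocyte growth factor, is made by mesenchymal cells and acts on epithelial cells through a splice form of FGFR2. It had 108, 129 and 162 tags in the IL-11- libraries and 463, 386 and 520 tags in the IL-11+ libraries. The lowest IL-11+ library, replicate 2, still held over 2 times the tags of the highest IL-11- library. The level of *Fgf7* went from 119 ± 15.1 to 459.5 ± 58.6 normalized CPM (SD, n = 3), with a log2 fold change at 1.94 (SE 0.177, 95% interval 1.57 to 2.31, adjusted p = 4.04e-07 by edgeR). *Fgf10*, which binds the same splice form and is needed for the budding of epithelia in the embryo, had 52, 42 and 57 tags in the IL-11- libraries and 142, 157 and 120 in the IL-11+ libraries. Again no library of 1 group reached the other group. Its level was 45.3 ± 5.20 normalized CPM (SD, n = 3) in IL-11- fibroblasts and 141 ± 23.8 in IL-11+ fibroblasts, with a log2 fold change of 1.64 (SE 0.193, 95% interval 1.23 to 2.04, adjusted p = 8.32e-06 by edgeR). Within the 3 replicate numbers, the log2 difference ranged from 1.67 to 2.23 for *Fgf7* and from 1.26 to 1.96 for *Fgf10*.

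*Fgf2*, basic FGF, binds several FGF receptors and acts on fibroblasts and endothelial cells. It had far fewer tags, with 12, 10 and 8 in the IL-11- libraries and 54, 29 and 29 in the IL-11+ libraries. IL-11+ replicate 1 stood above the other two, and even the lowest IL-11+ library was above all IL-11- libraries. The level of *Fgf2* was 9.15 ± 2.46 normalized CPM (SD, n = 3) in IL-11- fibroblasts and 38.1 ± 16.6 in IL-11+ fibroblasts. Its log2 fold change of 2.05 had the widest interval among the called ligands (SE 0.365, 95% interval 1.28 to 2.82, adjusted p = 0.00058 by edgeR), and the log2 difference was 2.15, 1.47 and 1.80 in replicate numbers 1, 2 and 3.

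The other ligands were near the floor and outside the test. *Fgf1*, acidic FGF, on the minus strand of chromosome 18, can bind every FGF receptor. It had 6, 6 and 11 tags in the IL-11- libraries and 5, 6 and 11 in the IL-11+ libraries, so that the groups covered almost the same range. *Fgf9*, known for signals between epithelium and mesenchyme, had 10, 10 and 2 tags in the IL-11- libraries and 2, 6 and 5 in the IL-11+ libraries. IL-11- replicates 1 and 2 were the highest for *Fgf9* and replicate 3 was among the lowest, and the groups overlapped. *Fgf18*, known from cartilage and lung development, had 6, 4 and 2 tags in the IL-11- libraries and 2, 0 and 0 in the IL-11+ libraries. Summed over the libraries, *Fgf18* had 12 against 2 tags, and the groups overlapped. In a fit that kept genes with at least 1 tag in 3 libraries (15692 genes), adjusted p by edgeR was 0.931 for *Fgf1*, 0.691 for *Fgf9* and 0.221 for *Fgf18*. No difference in these 3 ligands passed that test. For *Fgf18* the ratio of IL-11- to IL-11+ tags per normalized library size was 5.37 (95% counting interval 1.195 to 49.4). Its unadjusted p by edgeR in that fit was 0.0451. Against the floor of 3 tags per IL-11+ library, the ratio for *Fgf18* was 1.23.

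Taken over all 7 ligands, IL-11- libraries held 334, 356 and 383 ligand tags and IL-11+ libraries 1302, 1227 and 1326. This is 323 ± 11.0 normalized CPM (SD, n = 3) against 1297 ± 72.7, a ratio of 4.02. The 6 FGF ligands without *Hgf* summed to 191 ± 6.90 against 651 ± 57.5 normalized CPM, a ratio of 3.41. The share of *Hgf* among the ligand tags was 40.8 ± 3.51% in IL-11- and 49.8 ± 2.25% in IL-11+ libraries, without overlap. *Fgf7* took 37.0 ± 5.02% and 35.4 ± 3.88%, *Fgf10* 14.1 ± 2.01% and 10.9 ± 1.87%, and *Fgf2* 2.83 ± 0.752% and 2.90 ± 1.08% (SD, n = 3 each). For these 3 FGFs the shares of the groups overlapped. The shares of the low ligands were smaller in IL-11+ libraries without overlap, at 2.12 ± 0.655% and 0.568 ± 0.233% for *Fgf1*, 2.11 ± 1.38% and 0.340 ± 0.171% for *Fgf9* and 1.15 ± 0.637% and 0.0512 ± 0.0887% for *Fgf18*. With almost equal tags of *Fgf1* in both groups, its smaller share follows from the larger total. The larger total also lowers the shares of *Fgf9* and *Fgf18*, whose levels overlapped between the groups. For *Fgf9* the lowest IL-11- share, 0.522% in replicate 3, was close to the highest IL-11+ share, 0.489% in replicate 2. No difference in share was tested.

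*Fgfr1*, the FGF receptor that many mesenchymal cells carry, had 154, 139 and 171 tags in the IL-11- libraries and 139, 119 and 157 in the IL-11+ libraries. The ranges overlapped. Its means were 139 ± 8.08 and 139 ± 16.0 normalized CPM (SD, n = 3). For *Fgfr1* the log2 fold change was -0.0017 (SE 0.166, adjusted p = 0.996 by edgeR), with a 95% interval from -0.35 to 0.35 that leaves out a change of 2 times in either direction. *Fgfr2*, whose epithelial splice form receives FGF7 and FGF10, had 73, 77 and 67 tags in the IL-11- libraries and 53, 78 and 126 in the IL-11+ libraries. The IL-11+ libraries of *Fgfr2* spread widely, with replicate 1 below all IL-11- tag counts and replicate 3 above them. At 65.8 ± 9.41 and 85.2 ± 32.4 normalized CPM (SD, n = 3), its log2 fold change was 0.38 (SE 0.236, 95% interval -0.11 to 0.88, adjusted p = 0.329 by edgeR). Gene-level tags do not separate the splice forms.

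*Met*, the receptor of HGF, had 5, 6 and 8 tags in the IL-11- libraries and 0 tags in each of the 3 IL-11+ libraries. Every IL-11- library was thus above every IL-11+ library, at a very low level of 5.67 ± 0.898 normalized CPM (SD, n = 3). Against the floor of 3 tags per IL-11+ library, *Met* was at least 1.87-fold lower in IL-11+ fibroblasts. It was outside the test because no library reached 10 tags. In the fit that kept genes with at least 1 tag in 3 libraries, *Met* was called lower with adjusted p = 0.00515 by edgeR's quasi-likelihood test. *Met* passed that filter through its IL-11- libraries alone, so that the filter favored a gene that was high in IL-11- fibroblasts.

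The wider pathway was read from lists with 93 genes, of which 78 were in the files and 56 were tested. Of these 56 genes, 4 were called higher and 5 lower in IL-11+ fibroblasts, against 3.44% and 6.37% of all tested genes, and 15 lay above and 10 below the IL-11- libraries without overlap, against 14.5% and 16.7%. The median log2 fold change of the 56 genes was 0.07, close to -0.01 over all tested genes. Other FGF ligands were almost absent. Of 16 listed, 9 were in the files and 0 passed the filter on low genes, and together they summed to between 1.06 and 14.0 normalized CPM per library, with *Fgf23*, a hormone of phosphate balance, and *Fgf11* sharing the most tags at no more than 7 per library. Among other receptors, 1 gene was tested, *Mst1r*, which encodes the receptor of an HGF-like protein and is related to *Met*. *Mst1r* had 10, 17 and 13 tags in the IL-11- libraries and 10, 18 and 16 in the IL-11+ libraries, with a log2 fold change of 0.29 (SE 0.374) and adjusted p = 0.684 by edgeR.

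Of 7 tested co-receptors and binding proteins of FGFs, 1 was called higher and 1 lower, against 3.44% and 6.37% of all tested genes, and the median log2 fold change was 0.01. *Sdc1*, syndecan 1, a proteoglycan whose heparan sulfate chains bind FGFs and HGF, had 216, 217 and 82 tags in the IL-11- libraries and 1008, 971 and 583 in the IL-11+ libraries. Replicate 3 was the lowest of each group, and the groups did not overlap. The log2 fold change of *Sdc1* was 2.45 (SE 0.317, adjusted p = 2.07e-05 by edgeR), larger than that of any of the 6 tested ligands and receptors. *Sdc4*, the gene with the most tags in this list over all libraries, went from 513 ± 87.4 to 802 ± 203 normalized CPM (SD, n = 3). Its log2 fold change of 0.64 was under the fold threshold (adjusted p = 0.0335 by edgeR). In IL-11+ fibroblasts the mean of *Sdc1* was higher than that of *Sdc4*, at 870 normalized CPM. *Flrt2*, a membrane protein of a family that binds FGF receptors, had 62, 38 and 84 tags in the IL-11- libraries and 18, 10 and 29 in the IL-11+ libraries, without overlap. It fell by 1.52 on the log2 scale (SE 0.321, adjusted p = 0.00256 by edgeR).

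Enzymes that build and edit heparan sulfate had 2 of 10 tested genes called higher and 0 lower by edgeR (0 by DESeq2), against 3.44% and 6.37% of all tested genes, with a median log2 fold change of 0.54 against -0.01 for all tested genes. Of the 10, 5 lay above without overlap and 1 below, against 14.5% and 16.7% of all tested genes. *Hs3st1*, a sulfotransferase, had 25, 30 and 45 tags in the IL-11- libraries and 64, 54 and 120 in the IL-11+ libraries, and its log2 fold change was 1.40 (SE 0.272, adjusted p = 0.00123 by edgeR). All IL-11+ libraries of *Hs3st1* were higher, and replicate 3 was the highest of each group. *Ndst2*, which starts the sulfation of the chain, had 11, 8 and 14 tags in the IL-11- libraries and 38, 13 and 19 in the IL-11+ libraries. *Ndst2* reached the minimum of 10 tags in all IL-11+ but not in all IL-11- libraries, so that the filter favored it. Its call was at the threshold, with a log2 fold change of 1.25 (SE 0.415) and adjusted p = 0.0484 by edgeR, and it rested on IL-11+ replicate 1, without which the log2 fold change of *Ndst2* was 0.67 and adjusted p = 0.363. The call of *Ndst2* was also lost without IL-11- replicate 1, 2 or 3 (log2 fold change 1.29, 1.10 and 1.38, adjusted p = 0.103, 0.166 and 0.0696), with DESeq2 (1.28, adjusted p = 0.0806) and with scaling by library size only (1.15, adjusted p = 0.0675). *Sulf1*, an enzyme that removes sulfate groups from the chains and the gene with the most tags in the list, went from 109 ± 20.8 to 178 ± 44.7 normalized CPM (log2 fold change 0.71, adjusted p = 0.0218 by edgeR), under the fold threshold and with overlapping groups. *Sulf2*, an enzyme of the same function chosen after its values were seen, had a log2 fold change of -0.83 without overlap (adjusted p = 0.0335 by edgeR), also under the fold threshold.

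Of the proteases that can activate the HGF precursor, 2 were tested and 1 was called lower and 0 higher by edgeR (0 by DESeq2), against 6.37% and 3.44% of all tested genes. *Plat*, tissue-type plasminogen activator, had 367, 272 and 356 tags in the IL-11- libraries and 90, 94 and 131 in the IL-11+ libraries. The IL-11+ libraries were all well under the IL-11- libraries, and *Plat* fell by 1.51 on the log2 scale (SE 0.182, adjusted p = 1.11e-05 by edgeR). *Plau*, urokinase, the other tested protease, had overlapping groups and a log2 fold change of -0.08 (adjusted p = 0.843 by edgeR). *Hgfac*, whose protein is another activator of HGF, was not analysed here.

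Among adaptors and proximal signaling genes, 1 of 21 tested genes was called higher and 0 lower by edgeR (0 by DESeq2), near the 3.44% and under the 6.37% of all tested genes, with a median log2 fold change of 0.06. The called gene was *Cbl*, a ubiquitin ligase that removes activated receptor tyrosine kinases, with 35, 60 and 51 tags in the IL-11- libraries and 84, 105 and 87 in the IL-11+ libraries. The groups of *Cbl* did not overlap, and its log2 fold change of 1.08 (SE 0.214, adjusted p = 0.0015 by edgeR) was just over the fold threshold. Without IL-11- replicate 1 or IL-11+ replicate 2 it was 0.92 and 0.97, and the call of *Cbl* was lost, as it was with scaling by library size only, just under the fold threshold. *Ptpn11*, a phosphatase that relays receptor signals and the gene with the most tags in the list, had overlapping groups and a log2 fold change of 0.08 (95% interval -0.28 to 0.44, SE 0.170, adjusted p = 0.823 by edgeR).

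Feedback inhibitors and transcription factors that respond to ERK had 0 of 14 tested genes called higher by edgeR (0 by DESeq2) and 3 called lower, against 3.44% and 6.37% of all tested genes, with a median log2 fold change of 0.01. Of the 14, 3 lay above and 5 below without overlap, against 14.5% and 16.7% of all tested genes. *Myc*, a growth regulator, had 114, 83 and 120 tags in the IL-11- libraries and 47, 46 and 43 in the IL-11+ libraries, and fell by 1.06 on the log2 scale (SE 0.198, adjusted p = 0.000943 by edgeR). *Ccnd1*, cyclin D1, which drives entry into the cell cycle, had 15, 27 and 18 tags in the IL-11- libraries and 2, 6 and 6 in the IL-11+ libraries, with a fall of 1.92 (SE 0.458, adjusted p = 0.00651). Both genes were lower in every IL-11+ library than in any IL-11- library, and *Ccnd1* passed the filter through its IL-11- libraries alone. *Etv1*, an ETS transcription factor that also marks interstitial cells of Cajal, had 69, 51 and 49 tags in the IL-11- libraries and 19, 20 and 31 in the IL-11+ libraries, with a fall of 1.12 (SE 0.268, adjusted p = 0.00651). Some of these calls were lost without a single library. Without IL-11- replicate 1 the log2 fold change of *Etv1* was -0.91 and that of *Myc* -0.95, without IL-11+ replicate 3 that of *Myc* was -0.98, and without IL-11- replicate 2 that of *Ccnd1* was -1.60 (adjusted p = 0.0535), each of which ended the call. *Egr1*, an immediate early gene and the gene with the most tags in this list, stood at 5347 ± 997 and 3675 ± 202 normalized CPM (SD, n = 3), and its log2 fold change was -0.54 (SE 0.185, adjusted p = 0.0554 by edgeR). *Fos*, chosen after its values were seen, stood at 4838 and 2498 normalized CPM without overlap, and its log2 fold change of -0.95 was just under the fold threshold (adjusted p = 0.000826 by edgeR).

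**Figure D2:**
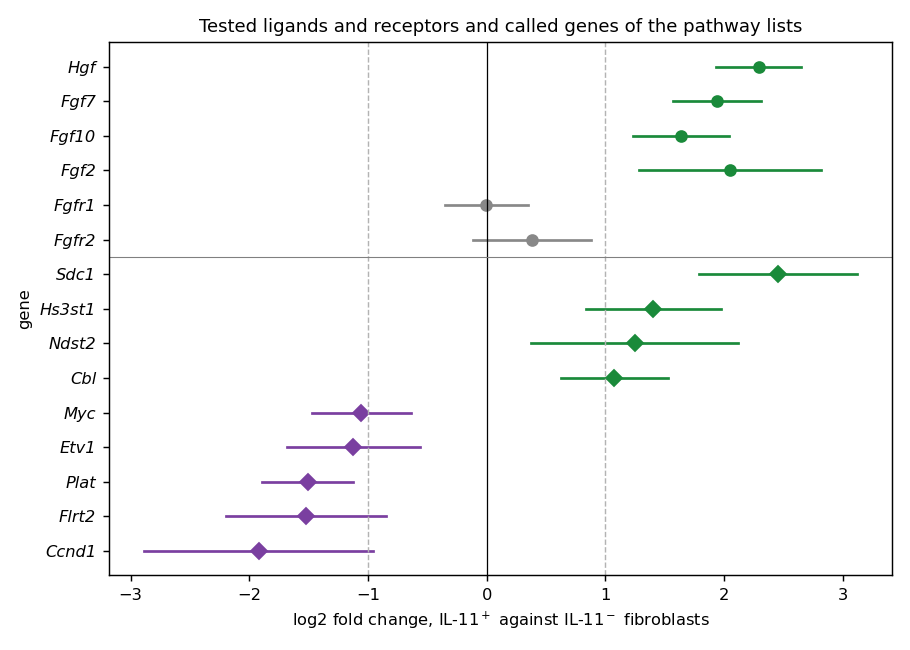
The horizontal axis gives the log2 fold change of IL-11+ against IL-11- fibroblasts and the vertical axis lists the 6 tested ligands and receptors (circles, above the line) and the 9 called genes of the pathway lists (diamonds). Bars are 95% intervals, dashed lines mark a fold change of 2, and green, purple and gray stand for called higher, called lower and not called. The intervals of *Hgf*, *Fgf7*, *Fgf10* and *Fgf2* lie to the right of the dashed line, and those of *Fgfr1* (-0.35 to 0.35) and *Fgfr2* (-0.11 to 0.88) hold 0.

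The gate leaves several stromal cell types in the sorted cells, and their markers differed between the groups. For the counts that follow, 3.44% of all tested genes were called higher and 6.37% lower, and 14.5% lay above and 16.7% below without overlap. All 12 fibroblast markers were tested, and their sum was 26567, 26713 and 29441 normalized CPM in IL-11- replicates 1, 2 and 3 and 45148, 37507 and 33414 in IL-11+ replicates 1, 2 and 3. *Dcn*, decorin, had the most tags of that list in both groups. Of the 12, 2 were called higher, *Col3a1* and *Pdpn*, and 0 lower by edgeR, and 5 lay above and 2 below without overlap. Those below were *Dpt* and *Lum*, with log2 fold changes of -0.96 and -0.64. All 7 smooth muscle markers were called lower, with sums of 2569, 3214 and 4023 against 96.4, 155 and 335 normalized CPM. *Myh11*, smooth muscle myosin, had the most tags of these over all libraries. It had 850, 943 and 1332 tags in the IL-11- libraries and 18, 18 and 84 in the IL-11+ libraries. In the IL-11+ libraries *Tagln* had more, at 24, 46 and 86. *Cnn1* passed the filter through its IL-11- libraries alone. *Actg2* and *Des* reached 10 tags in all IL-11- but not in all IL-11+ libraries. Of 7 pericyte markers 4 were called lower, while *Abcc9* and *Kcnj8* had log2 fold changes of 0.66 and 0.71 (adjusted p = 0.0167 and 0.0394 by edgeR), under the fold threshold. The list had sums of 2681, 2289 and 2105 against 1076, 903 and 803 normalized CPM. *Rgs5* was the pericyte marker with the most tags over all libraries and the main part of that difference. It had 1951, 1700 and 1800 tags in the IL-11- libraries and 186, 174 and 206 in the IL-11+ libraries. In the IL-11+ libraries *Abcc9* had more, at 469, 391 and 373. Of the 4 called pericyte markers, *Notch3* passed the filter through its IL-11- libraries alone. *Mcam* reached 10 tags in all IL-11- but not in all IL-11+ libraries. All 3 markers of interstitial cells of Cajal were called lower (271, 168 and 258 against 21.2, 20.3 and 50.5 normalized CPM, *Ano1* with the most tags over all libraries). *Kit*, at 0 in IL-11+ replicates 1 and 2, passed the filter through its IL-11- libraries alone. *Ano1* had 152, 93 and 196 tags in the IL-11- libraries and 1, 0 and 15 in the IL-11+ libraries, so that the filter favored it too. Of the glial markers, *Sox10*, *S100b* and *Foxd3* were at 0 in all IL-11+ libraries. Mesothelial markers summed to 12.4, 5.65 and 21.3 against 0, 0 and 1.91 normalized CPM, with *Wt1* in front and *Msln*, *Upk3b* and *Krt19* at 0 in the IL-11+ libraries. These sums move with the groups, and so with the ligands and *Met*, and their part in the differences was not tested.

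Markers of the cells that the gate removes varied between libraries. The epithelial list, with 7 genes in the files, summed to 3.82, 0.942 and 14.0 normalized CPM in IL-11- and 2.12, 5.08 and 7.63 in IL-11+ fibroblasts. *Krt8* was in front over all libraries, and *Epcam* was at 0 or 1 tag per library. In the IL-11+ libraries *Cldn3* had 0, 2 and 3 tags and *Krt8* 0, 0 and 2. Endothelial markers summed to 43.0, 26.4 and 37.8 against 18.0, 7.11 and 6.68 normalized CPM. *Tek* had the most tags of these and was called lower, and *Pecam1*, *Lyve1* and *Emcn* were at 0 in the IL-11+ libraries. *Tek* reached 10 tags in all IL-11- but not in all IL-11+ libraries. Immune markers summed to 20.1, 43.3 and 27.1 against 32.9, 13.2 and 21.9 normalized CPM. *Cd74*, the only one tested, was in front over all libraries and called lower (adjusted p = 0.0468 by edgeR). It reached 10 tags in all IL-11- but only 1 of the IL-11+ libraries. *S100a8* had 2, 4 and 2 tags against 13, 1 and 12. In IL-11+ fibroblasts the mean of *S100a8* was above that of *Cd74*, at 8.75 against 5.24 normalized CPM. Red cell markers, led by the hemoglobin gene *Hbb-bs*, summed to 90.7, 0 and 305 against 19.1, 2.03 and 19.1 normalized CPM, highest in IL-11- replicate 3. The part of these cells in the results was not tested.

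**Figure D3:**
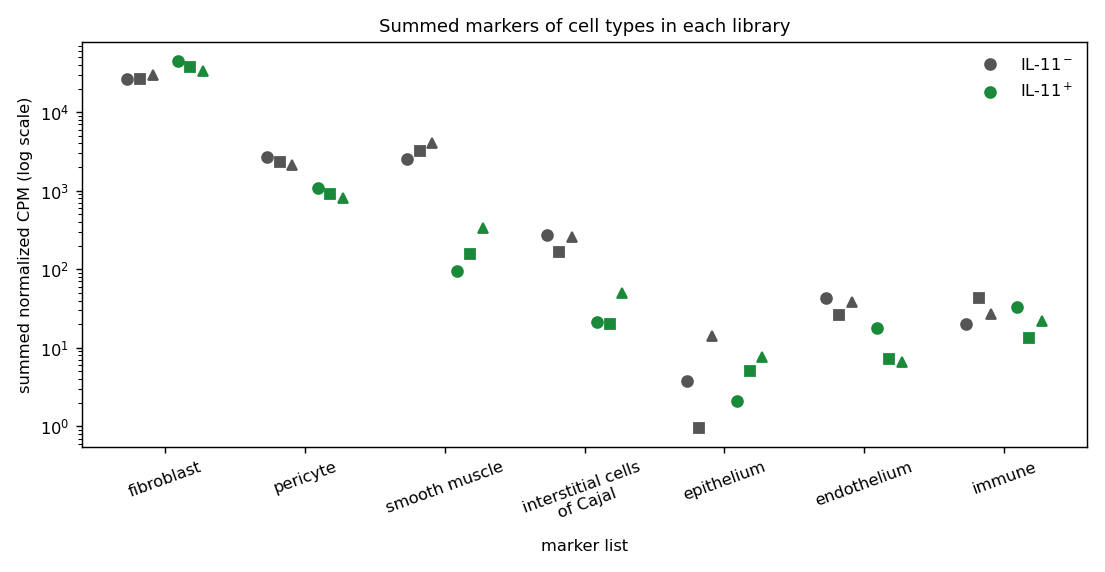
Summed normalized CPM of each marker list, on a log scale, are plotted on the vertical axis for the lists named on the horizontal axis, with 1 point per library (gray IL-11-, green IL-11+, and circles, squares and triangles for replicates 1, 2 and 3). Mesothelial and red cell lists, which sum to 0 in some library, and the glial list are not drawn. Fibroblast markers sum to at least 26567 in every library, and smooth muscle markers to 2569 to 4023 in IL-11- and 96.4 to 335 in IL-11+ libraries.

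Scaled to the summed fibroblast markers in place of TMM, a choice made after seeing the data, the 4 ligands were still called. Under this scaling the median log2 fold change of all tested genes was -0.48 in place of -0.01. The log2 fold change was 1.81 for *Hgf*, 1.48 for *Fgf7*, 1.16 for *Fgf10* and 1.54 for *Fgf2*, while *Fgfr1* and *Fgfr2* stood at -0.47 and -0.06 and were not called. The calls of *Hs3st1*, *Cbl* and *Ndst2* were lost with this scaling, at log2 fold changes of 0.97, 0.60 and 0.75, and *Flrt3*, *Sdc3*, *Sulf2*, *Frs2*, *Egr1* and *Fos* were called lower with it.

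The 5 genes whose log2 CPM followed *Hgf* most closely over the 6 libraries were *Plk2* (Pearson r = 0.999), *Tead1* (0.999), *Il1r1* (0.997), *Il13ra2* (0.996) and *Dhx40* (0.995). For *Fgfr1*, the receptor with the most tags, they were *Neu1* (0.990), *Mink1* (0.976), *Apobec3* (0.974), *Galnt7* (0.970) and *Slc4a7* (0.960). The genes near *Hgf* follow mainly the step between the groups, and the genes near *Fgfr1* have no such step, with log2 fold changes from -0.10 to 0.03. These correlations, picked as the highest of 9334 over only 6 libraries in 2 groups, are a description.

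The genes lie at separate places in the genome (GRCm38, GENCODE mouse release 21). *Hgf* is on chromosome 5 (chr5:16553495-16620152, plus strand, 19 exons in its longest coding transcript), *Fgf7* on chromosome 2 (chr2:126034658-126091185, plus strand, 4 exons), *Fgf10* on chromosome 13 (chr13:118669791-118792115, plus strand, 3 exons), *Fgf2* on chromosome 3 (chr3:37348346-37410108, plus strand, 3 exons) and *Met* on chromosome 6 (chr6:17463800-17573980, plus strand, 22 exons). *Fgfr1* is on chromosome 8 (chr8:25513654-25575718, plus strand, 18 exons), *Fgf18* on chromosome 11 (chr11:33117430-33147400, minus strand, 5 exons), *Fgf9* on chromosome 14 (chr14:58070547-58112720, plus strand, 3 exons) and *Fgfr2* on the minus strand of chromosome 7 (16 exons). To see whether tags could be shared, all windows of 50 nt within the first 300 nt of their transcripts were looked up in those of every other gene. No window was shared for *Hgf*, *Fgf7*, *Fgf10*, *Met*, *Fgf1*, *Fgf9* and *Fgf18*. *Fgf2* shared 9.31% of its windows with the predicted gene *Gm43439* on its own strand, *Fgfr2* shared 7.72% with *Ctbp2*, and *Fgfr1* shared 0.682% with 8 other genes, so that the counts of these 3 genes are less certain where tags fell on such windows. *Nudt6*, which overlaps *Fgf2* on the opposite strand, is kept apart because tags were mapped in 1 orientation.

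Since *Hgf*, *Fgf7* and *Fgf10* differed in the same direction, the 250 bases before their transcription starts are shown, read from RefSeq promoter sequences (GRCm38.p6). Entries were found for 8 of the 10 genes, and not for *Fgf1* and *Fgfr1*. Each stretch is on the plus strand and outside annotated exons, and that of *Fgf10* lies within the annotated gene. Both strands were searched for the AP-1 motif TGANTCA, the STAT motif TTCNNNGAA, the ETS motif CCGGAAG, the TEAD motif GGAATG, the TATA box TATAAA and the SP/KLF motif GGGGCGGGG, and capitals mark a match.
*Hgf*, chr5:16553245-16553494: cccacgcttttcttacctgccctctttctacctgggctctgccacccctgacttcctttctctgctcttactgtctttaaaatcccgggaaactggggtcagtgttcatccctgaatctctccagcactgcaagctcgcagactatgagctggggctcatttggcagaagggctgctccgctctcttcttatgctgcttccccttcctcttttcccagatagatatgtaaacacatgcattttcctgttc
*Fgf7*, chr2:126034408-126034657: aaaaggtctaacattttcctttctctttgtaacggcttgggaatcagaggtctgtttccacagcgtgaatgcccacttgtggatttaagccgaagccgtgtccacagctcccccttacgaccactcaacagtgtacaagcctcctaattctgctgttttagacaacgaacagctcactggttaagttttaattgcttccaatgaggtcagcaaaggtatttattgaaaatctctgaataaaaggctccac
*Fgf10*, chr13:118714449-118714698: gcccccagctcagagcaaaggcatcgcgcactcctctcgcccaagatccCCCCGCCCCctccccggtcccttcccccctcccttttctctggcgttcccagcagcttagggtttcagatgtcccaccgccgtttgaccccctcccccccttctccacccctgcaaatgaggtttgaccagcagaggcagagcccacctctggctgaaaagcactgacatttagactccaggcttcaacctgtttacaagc
The only match in the 3 stretches was GGGGCGGGG, found in *Fgf10* as its reverse complement from base -201 to -193 before the start, and no matches overlapped. A second entry of *Hgf* (chr5:16553651-16553900) is not shown because 150 of its 250 bases lie within annotated exons. The stretch before *Fgf2* is not shown because it lies within annotated exons. It holds GGGGCGGGG from base -50 to -42, and the stretch before *Met*, also partly within exons, holds a match of TGANTCA from base -54 to -48. Over the same 250 bases of 32851 promoters, the AP-1 motif was found in 6.75%, the STAT motif in 7.02%, the ETS motif in 6.91%, the TEAD motif in 12.6%, the TATA box in 12.4% and the SP/KLF motif in 10.4%. In the 3 stretches shown, the share of G and C was 50.8% before *Hgf*, 43.6% before *Fgf7* and 61.2% before *Fgf10*, with a median of 52.4% over all promoters. A match, or its absence, describes these letters only and says nothing about binding.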

How the data were processed

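RNA of 3 EGFP-Negative and 3 EGFP-Positive libraries was compared. The authors trimmed reads with Cutadapt 1.18, used Bowtie2 2.2.5 to map them in 1 orientation to mm10 RNA of RefSeq, and deposited the tag count of each gene symbol, without normalization. How tags mapping to several genes were handled is not given in the sources used here. The methods set 10 tags as the limit for low genes in words that would exclude the genes at or above it, which was read here as keeping them.

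In R 4.3.3, genes that reached 10 tags in 3 or more of the 6 libraries were tested with edgeR 4.0.16 (TMM, glmQLFit, glmQLFTest, Benjamini-Hochberg adjustment), with the thresholds of the methods (adjusted p of 0.05, fold change of 2) and no block. The SE is the log2 fold change divided by the square root of F. Tags of the tested genes, scaled by TMM, gave the library sizes of normalized CPM. The fit was tested on simulated data.

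Replicate numbers come from the sample titles. Same-numbered libraries of both groups deviated together from their group means (r = 0.231, 0.186 and 0.268 over 5063 genes that average 30 tags or more), and the methods name 3 mice. The numbers were therefore taken as pairs in the fit with a replicate block.

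Alternatives were RLE size factors, library size only, iterative TMM as in TCC (3 iterations, first-round adjusted p of 0.1, at least 5% of genes left out), DESeq2 1.42.0, a filter of 1 tag in 3 libraries, filterByExpr, no filter, the adjusted p alone, the replicate block and each library left out. Scaling to the summed fibroblast markers was added after seeing the data.

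The genes and lists were chosen with earlier results of these data known. Named genes are the 10 ligands and receptors, *Il11*, the called genes and the gene with the most tags of each pathway list, the 5 genes most like *Hgf* and *Fgfr1*, and markers of cell types by list. Markers named beyond the one with the most tags, genes called with 1 scaling only, *Plau*, and *Fgf11*, which ties with *Fgf23*, were chosen after their values were seen. Some genes of the lists are not reported here. Protein sequences were not used here. Human datasets and quantitative PCR were not used here.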

Additional observations from a re-analysis of the deposited data

How the results depend on the processing

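*Hgf*, *Fgf2*, *Fgf7* and *Fgf10* passed the threshold in all 16 alternatives and *Fgfr1* and *Fgfr2* in 0 of 16. The log2 fold change ranged from 1.81 to 2.38 for *Hgf*, from 1.54 to 2.24 for *Fgf2*, from 1.48 to 2.05 for *Fgf7* and from 1.16 to 1.77 for *Fgf10*, each lowest with scaling to the summed fibroblast markers, and from -0.47 to 0.10 for *Fgfr1* and from -0.06 to 0.61 for *Fgfr2*. Their highest adjusted p over the alternatives was 5.04e-06, 0.00531, 2.44e-05 and 0.000555 for the 4 called ligands, and the lowest was 0.114 for *Fgfr1* and 0.0882 for *Fgfr2*. The number of ligands and receptors called lower was 1, *Met*, with a filter of 1 tag in 3 libraries and with no filter, because *Met* is tested there. Pathway genes called higher numbered 2 with library size only, and 9 with the adjusted p alone, where all tested genes called higher numbered 638, because small fold changes then count. With each library left out in turn, pathway genes called higher ranged from 2 to 4 and lower from 3 to 7. Without IL-11- replicate 1, pathway calls were 2 higher and 3 lower. With scaling to the summed fibroblast markers, chosen after seeing the data, 1 pathway gene was called higher and 11 lower, and over all tested genes 137 were called higher and 1450 lower, so that 8.63% of the calls were higher against 35.0% with TMM. The median log2 fold change moved to -0.48 there, because this scaling shifts all genes alike by the difference in the marker sums. With the replicate block, 4 ligands and receptors were called higher and 0 lower, pathway calls were 4 higher and 5 lower, and all tested genes 337 higher and 648 lower. Thus pairing changed no call named here. The depth of the libraries leaves *Met*, *Fgf1*, *Fgf9* and *Fgf18* near the floor, where moderate differences cannot be seen.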
